A study of Mus musculus with 12 samples.

Results

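Amino acid carriers of 7 solute carrier families (Slc1, Slc3, Slc6, Slc7, Slc36, Slc38 and Slc43) were examined in kidneys of WT and Tet2-/- mice, at baseline and after ischemia-reperfusion (IR). Members were taken by gene symbol, without the cystine exchanger gene Slc7a11, and for a symbol listed more than once the row with the largest sum of counts was kept. This gave 60 of the 24421 gene symbols in the files, with 7 genes of Slc1, 2 of Slc3, 19 of Slc6, 14 of Slc7, 4 of Slc36, 11 of Slc38 and 3 of Slc43. Each of 12 male C57BL/6 mice, 6 weeks old, gave 1 RNA-seq library of whole kidney, and the 4 groups held 3 libraries each. The baseline groups, WT and Tet2-/-, had no operation. The IR groups, WT and Tet2-/-, had the right renal pedicle clamped for 60 min, then lost the left kidney, and were sampled at 24 h. The label Tet2-/- stands for a knockout of the methylcytosine dioxygenase gene Tet2 in the whole animal, not in kidney cells alone, and these mice came from Tet2+/- breeding pairs. No sham library was analysed here, so an IR effect below includes the surgery and the loss of the other kidney.

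The proximal tubule takes back nearly all filtered amino acids. Carriers of its apical brush border (the Slc6a19 and Slc6a18 carriers of neutral amino acids, the cystine transporter of Slc3a1 with Slc7a9 or Slc7a13, the glutamate carrier Slc1a1) bring them into the cell. Basolateral carriers (Slc7a7, Slc7a8, Slc38a3 and others) pass them to the blood or take up glutamine for ammonia production. Another set of carriers, among them Slc38a2, Slc7a1, Slc7a5 and Slc3a2, is induced through the transcription factor ATF4 when amino acids run short or protein folding is disturbed, in most cell types. By such textbook roles the members were put in 9 apical, 5 basolateral, 8 stress-induced, 3 osmolyte, 5 lysosomal and 14 glutamate and transmitter carriers, 7 other Slc38 genes, 6 other Slc7 genes and 3 further genes.

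Short sequences are shown for the stress-induced carriers because ATF4 acts through a known DNA element, the amino acid response element, whose letters can be looked for near these genes. From 500 bases before to 1500 bases after the start of the counted transcript, on either strand of mm9, the letters TGATGNAAT were found in 2 of 60 members, both of them stress-induced (2 of 8), against 5.914% of 24351 genes. In both genes the match lay in an intron of the annotation. Each line gives 49 bases of the gene's own strand, 5′ to 3′, with the match in capitals, which in both is on the opposite strand.
Slc38a2, chr15:96529588-96529636, minus strand: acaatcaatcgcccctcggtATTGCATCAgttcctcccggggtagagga
Slc7a3, chrX:98280495-98280543, minus strand: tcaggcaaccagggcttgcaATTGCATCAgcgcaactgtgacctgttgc
In RefSeq promoters on GRCm38.p6, which run from 250 bases before to 50 bases after a start, the shorter letters TGATGNAA, contained in those above, were found in 3.969% of 32851 promoters. By gene, 4.511% of 27025 genes held them in at least 1 promoter. Of the 42 members with a promoter in that table, 2 held them (4.762%, near the share of all genes), Slc1a4 (stress-induced) and Slc7a7 (basolateral). The Slc1a4 match is shown with its flanks, and its capitals are again the opposite strand.
Slc1a4, chr11:20332690-20332737, minus strand: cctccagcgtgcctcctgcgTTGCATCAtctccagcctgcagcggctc
For the apical carriers, the letters CAAAGTCCA of an HNF4 site, read on either strand, were searched in the same promoters. They were held by 0.475% of all promoters and by 0.555% of the genes in at least 1 promoter. The only member among these 42 with a match was Slc3a1, 1 of 6 apical genes in the table. Its promoter is printed whole because Slc3a1 is a main gene of the results below, and the capitals mark the match, which starts 39 bases before the start of the transcript.
Slc3a1, chr17:85028097-85028396, plus strand: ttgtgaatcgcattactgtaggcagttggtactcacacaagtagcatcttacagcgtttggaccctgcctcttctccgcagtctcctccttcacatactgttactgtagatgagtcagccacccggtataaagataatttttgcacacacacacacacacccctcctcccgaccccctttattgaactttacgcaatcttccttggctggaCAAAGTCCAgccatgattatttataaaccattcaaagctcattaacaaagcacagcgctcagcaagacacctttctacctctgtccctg
A match is a description of the letters and does not show that a factor binds there.

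The level of a gene is given as FPKM, fragments scaled to transcript length and to library size, which allows levels of different genes to be compared. By their highest group mean, 4 members reached at least 100 FPKM (Slc7a13, Slc6a18, Slc3a1 and Slc38a3), 34 lay between 1 and 100 and 22 stayed under 1, of which 13 were under 0.1. In WT baseline kidneys the first ranks were held by apical carriers, Slc7a13 with 22.0% of the summed FPKM of all members, Slc3a1 with 17.2% and Slc6a18 with 16.3%. In the IR libraries labelled Tet2-/- the order was Slc6a18 with 29.5%, Slc3a2 with 9.30% and Slc3a1 with 7.08%, so a stress-induced gene stood at rank 2. Slc7a13 had 5.78% in WT IR libraries, at rank 4.

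Total counts per library ran from 51007366 to 107969888, of which 366741.5 to 747310.5 fell on members. Tet2 itself was not lower in the baseline libraries labelled Tet2-/-. Its FPKM was 9.15, 6.25 and 7.33 in WT baseline libraries and 9.24, 16.6 and 10.3 in those labelled Tet2-/-, so the transcript level does not show the knockout there. Whether this allele leaves a transcript was not examined. After IR it was 9.34, 3.97 and 3.85 in WT and 2.64, 3.20 and 1.76 in the libraries labelled Tet2-/-, lower without overlap. The genotype is named by the label throughout. Genes were called at an adjusted p under 0.05, from edgeR's quasi-likelihood test over all genes tested, and a log2 fold change over 1 in either direction. Groups without overlap were common among all genes tested. For IR, 18.9% lay higher and 10.4% lower in WT, and 40.5% and 17.9% in the libraries labelled Tet2-/-. Between the genotypes after IR, 22% lay higher and 14.6% lower in the libraries labelled Tet2-/-. Of 13 proximal tubule markers, the summed FPKM ran from 4158 to 4482 in WT baseline and from 3932 to 4964 in Tet2-/- baseline libraries, from 2317 to 3165 after IR in WT, and from 906 to 1224 after IR in the libraries labelled Tet2-/-. In RNA of a whole kidney, fewer cells of a type and less RNA per cell cannot be told apart. Adipocyte genes were high in WT baseline replicates 2 and 3 and Tet2-/- IR replicate 3, where Adipoq, the adiponectin gene, had 3.01, 15.6 and 10.01 FPKM, against at most 0.273 in the other 9 libraries. Not all 10 adipocyte genes of the list split this way. Their summed FPKM was 185, 335 and 684 in these 3 libraries and 221 in Tet2-/- IR replicate 1, where Fabp4 had 106 and Pnpla2 107. The mean of log2(FPKM + 0.1) over the 10 genes was 2.23, 3.49 and 3.48 in the 3 and 0.063 in that library.

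IR in WT called few members. Of 47 members tested, 1 rose (2.13%) and 1 fell (2.13%), while 1.46% of all genes tested rose and 0.887% fell. Same-numbered WT libraries deviated together from their group means, and with the replicate number as a block 2 members rose and 3 fell. With that block 428 of 16015 genes rose and 559 fell. Without WT baseline replicate 3 or WT IR replicate 2, no member was called in either direction. Over all genes, these fits called 41 higher and 46 lower, and 62 higher and 37 lower. Member calls were also lost without both WT baseline libraries that held adipocyte genes. That fit holds 1 WT baseline library, so its lost calls are no result about the members. Without WT baseline replicate 2 none was called higher. In the libraries labelled Tet2-/-, IR raised 8 of 46 members tested (17.4%) and lowered 10 (21.7%), where 12.7% of all genes rose and 11.6% fell. Without Tet2-/- baseline replicate 1 or 3, 5 members were called higher. Between the genotypes at baseline, edgeR called 0 of 49 members, where 0.0124% of all genes passed as higher and 0% as lower. There were 10 members with an unadjusted p under 0.05, as were 1891 of the 16086 genes tested. DESeq2 called 1 member higher (Slc6a7) and 4 lower (Slc36a4, Slc38a11, Slc38a4 and Slc1a3), where it called 23 higher and 297 lower of 16086 genes. With limma 0 members were called.

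Between the genotypes after IR, 1 of 46 members was higher (2.17%) and 9 were lower (19.6%) in the libraries labelled Tet2-/-, where 2.3% of all genes passed as higher and 3.85% as lower. Without WT IR replicate 1 or 3 none was called higher, without Tet2-/- IR replicate 3 there were 2, and without Tet2-/- IR replicate 2 there were 5 lower. The interaction was called for 9 of 50 members. It was above 0 for 2 of these (4%) and below 0 for 7 (14%), against 3.79% and 5.39% of all genes. When both WT baseline libraries with adipocyte genes were left out, which leaves a single WT baseline library that is taken to vary like the other groups, 1 interaction was called, Slc6a20b. With Tet2-/- IR replicate 3 also left out, no interaction of a member was called at an adjusted p under 0.05. These fits called few interactions of any kind, 2 above and 8 below 0 among 17237 genes without the WT libraries and 0 above and 3 below among 17182 without all 3. For Slc3a1 the log2 value was −1.94 with all libraries, −1.94 without the 2 and −1.96 without the 3, and the adjusted p of edgeR's test was at most 0.0731.

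**Figure D1:**
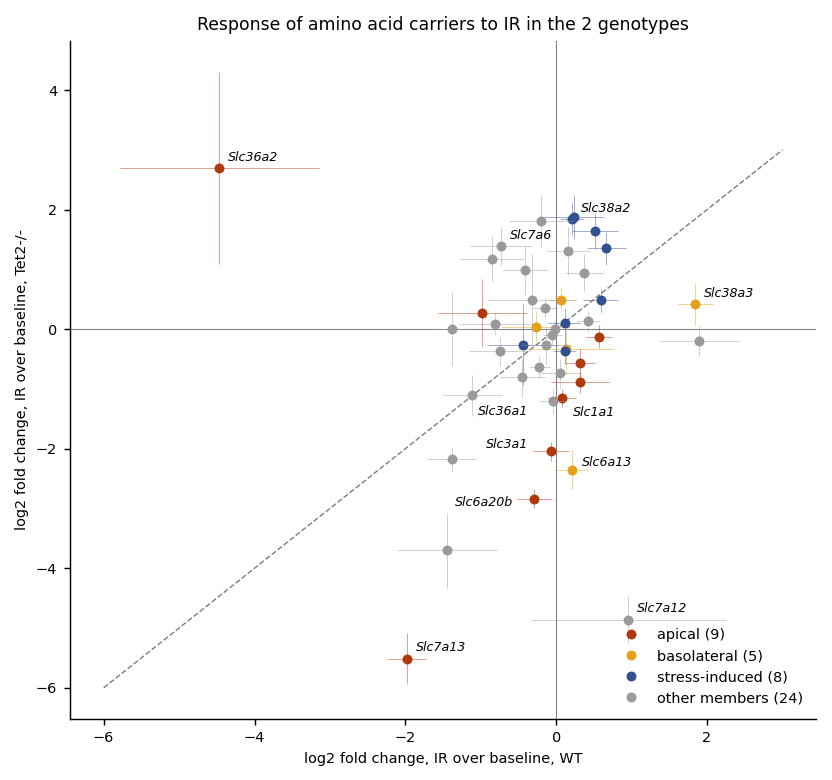
Log2 fold change of IR over baseline in WT (horizontal axis) and in the libraries labelled Tet2-/- (vertical axis) for the 46 members tested in both, with standard errors as bars and a dashed line where both are equal. Of these, 24 lie below the line, among them 7 of 9 apical and 3 of 8 stress-induced carriers. Names mark the 9 members with a called interaction, the members called in WT and Slc36a2.

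**Figure D2:**
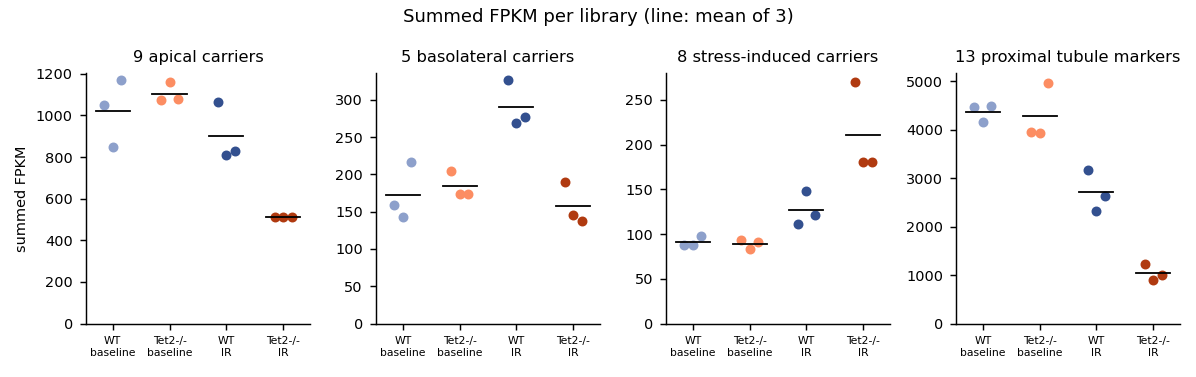
Summed FPKM (linear axes from 0) of the 9 apical, 5 basolateral and 8 stress-induced carriers and of 13 proximal tubule markers, 1 point per library in replicate order and a line at the mean of the 3 libraries of a group. The apical sum lay between 509.9 and 514 in the IR libraries labelled Tet2-/- and at 811 or more in every IR library of WT, while the stress-induced sum was 180.5 to 271 and 111 to 148 in the same groups.

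After IR in the libraries labelled Tet2-/-, the summed level of the apical carriers was lowest and that of the stress-induced carriers highest. The summed FPKM of the apical carriers was 1023 ± 162 (SD, n = 3) in WT baseline, 1105 ± 49.97 (SD, n = 3) in Tet2-/- baseline, 902 ± 142 (SD, n = 3) in WT IR and 512 ± 2.21 (SD, n = 3) in Tet2-/- IR libraries. The sum of the stress-induced carriers was 90.8 ± 5.74 (SD, n = 3), 89.4 ± 5.22 (SD, n = 3), 127 ± 19.2 (SD, n = 3) and 211 ± 51.9 (SD, n = 3) in the same order. The basolateral sum was 173 ± 38.6 (SD, n = 3), 184 ± 17.3 (SD, n = 3), 291 ± 31.01 (SD, n = 3) and 158 ± 28.4 (SD, n = 3), highest in WT IR libraries, where Slc38a3 had the highest mean of the 5 genes. These sums are descriptions with no test. Rescaling FPKM by the TMM factors of the libraries left the apical mean after IR lowest in the libraries labelled Tet2-/-.

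Slc7a13 (chr4:19745874-19769360) codes for AGT1, a light chain of rBAT in the straight part of the proximal tubule, and was the only apical carrier called after IR in both genotypes. Its FPKM was 326, 276 and 378 in WT baseline libraries and 116, 89.4 and 58.1 after IR. In the libraries labelled Tet2-/- it was 336, 432 and 374 at baseline and 15.3, 9.71 and 5.18 after IR. Every IR library lay under every baseline library, and the IR libraries of the 2 genotypes did not overlap. The log2 fold change of IR was −1.98 (standard error 0.25, edgeR adjusted p = 0.0151) in WT and −5.51 (standard error 0.42, edgeR adjusted p = 0.000157) in the libraries labelled Tet2-/-. Between the genotypes after IR it was −3.22 (standard error 0.41, edgeR adjusted p = 0.0116), and the 2 IR effects differed by −3.49 (standard error 0.48, edgeR adjusted p = 0.00381) on the log2 scale in the interaction test. The WT call was lost when WT baseline replicate 1 or 3 or WT IR replicate 2 was left out, with a log2 fold change from −2.20 to −1.79 over all alternatives.

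Slc3a1 (chr17:85427687-85463581 on mm9) codes for rBAT, the heavy chain that brings the cystine transporter to the brush border. Its FPKM was 265, 201 and 299.9 in WT baseline, 258, 273 and 257 in Tet2-/- baseline and 335, 219.6 and 214 in WT IR libraries, which overlapped. In the IR libraries labelled Tet2-/- it was 81.7, 72.3 and 73.6, under every other library. IR gave a log2 fold change of −0.07 (standard error 0.23, edgeR adjusted p = 0.891) in WT and −2.05 (standard error 0.16, edgeR adjusted p = 0.000182) in the libraries labelled Tet2-/-. The genotypes differed after IR by −1.85 (standard error 0.22, edgeR adjusted p = 0.0112), and the interaction was −1.94 (standard error 0.29, edgeR adjusted p = 0.00459). Its light chain partner Slc7a9 (b0,+AT) was not called by edgeR, DESeq2 or limma in any comparison. Slc7a9 had an FPKM of 27.98, 27.6 and 40.9 and 31.9, 21.7 and 39.1 in WT and Tet2-/- baseline libraries, 36.7, 44.8 and 44.04 in WT IR and 29.1, 20.2 and 25.1 in Tet2-/- IR libraries. The IR groups of both genotypes did not overlap, with a difference of −0.85 (standard error 0.20, edgeR adjusted p = 0.0432) on the log2 scale, under the fold limit. The IR effect of Slc7a9 in the libraries labelled Tet2-/- was −0.57 (standard error 0.25, edgeR adjusted p = 0.102).

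The imino acid carrier Slc6a20b (chr9:123502938-123541683) had 48.3, 35.4 and 60.1 FPKM in WT baseline, 37.6, 49.9 and 46.7 in Tet2-/- baseline and 51.7, 38.3 and 33.8 in WT IR libraries. It had 7.42, 8.57 and 6.53 in the IR libraries labelled Tet2-/-, a fall below all 9 others. The log2 fold change was −2.84 (standard error 0.16, edgeR adjusted p = 6.62e-05) for IR in these libraries, −2.56 (standard error 0.17, edgeR adjusted p = 0.0063) between the genotypes after IR and −2.51 (standard error 0.29, edgeR adjusted p = 0.00381) for the interaction, while IR in WT gave −0.29 (standard error 0.23, edgeR adjusted p = 0.50). The neighbouring paralog Slc6a20a was lower in level, with 12.4, 4.56 and 13.6, 7.43, 9.81 and 8.6, 16.2, 12.3 and 11.7 and 6.57, 5.81 and 4.4 FPKM in WT baseline, Tet2-/- baseline, WT IR and Tet2-/- IR libraries. It was called between the genotypes after IR, at −1.36 (standard error 0.19, edgeR adjusted p = 0.0127). How reads shared by these related genes were placed is not given in the sources used here, so the split between them is uncertain.

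Slc1a1, the glutamate and aspartate carrier EAAT3, kept 57.3, 46.6 and 64.6 FPKM in WT baseline, 59.6, 64.5 and 56.8 in Tet2-/- baseline and 74.7, 55.2 and 56.9 in WT IR libraries. It had 29.5, 32.4 and 35.1 in the IR libraries labelled Tet2-/-, again without overlap. IR gave a log2 fold change of −1.15 (standard error 0.15, edgeR adjusted p = 0.000982) there and 0.08 (standard error 0.18, edgeR adjusted p = 0.833) in WT, and the interaction was −1.19 (standard error 0.24, edgeR adjusted p = 0.0133). The IR call was lost with limma with either pseudocount and with library sizes alone. After IR the genotypes differed by −1.04 (standard error 0.18, edgeR adjusted p = 0.0201), close to the fold limit, and this call was lost in 7 of 17 alternatives. They were library sizes alone, limma with either pseudocount, and leaving out WT IR replicate 1 or 3 or Tet2-/- IR replicate 1 or 2.

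The neutral amino acid carriers did not follow these genes. Slc6a18 (B0AT3, of the late proximal tubule) had 271, 228 and 224 FPKM in WT baseline, 319, 299 and 249 in Tet2-/- baseline, 424, 327 and 366 in WT IR and 305, 343 and 301 in Tet2-/- IR libraries. Its WT IR libraries all lay above its WT baseline libraries, with a log2 fold change of 0.57 (standard error 0.18, edgeR adjusted p = 0.135), and in the libraries labelled Tet2-/- IR gave −0.13 (standard error 0.19, edgeR adjusted p = 0.615). Slc6a19 (B0AT1, of the early proximal tubule) ranged within every group, with 41.3, 29.5 and 86.3 FPKM in WT baseline, 25.2, 12.9 and 46.7 in Tet2-/- baseline, 11.6, 24.3 and 45.8 in WT IR and 38.8, 18.1 and 62.5 in Tet2-/- IR libraries. All 4 groups overlapped, and the log2 fold change after IR between the genotypes was 0.44 (standard error 0.63, edgeR adjusted p = 0.676). edgeR called neither gene in any comparison or in the interaction, while DESeq2 called the interaction of Slc6a18, which was −0.66 by edgeR. Both carriers depend on collectrin (Tmem27) to reach the brush border. Tmem27 differed by a log2 fold change of −1.74 (standard error 0.25, edgeR adjusted p = 0.00164) for IR in the libraries labelled Tet2-/- and −0.99 (standard error 0.29, edgeR adjusted p = 0.0772) between the genotypes after IR, the latter not called.

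Slc36a2, which codes for the proton-coupled glycine and proline carrier PAT2, followed another pattern. Its FPKM was 0.031, 0.892 and 2.54 in WT baseline, 0.061, 0.066 and 0.050 in Tet2-/- baseline, 0.054, 0.057 and 0.053 in WT IR and 0.0040, 0.027 and 1.3 in Tet2-/- IR libraries. The only libraries over 0.1 were WT baseline replicates 2 and 3 and Tet2-/- IR replicate 3, the same 3 that were high in adipocyte genes. It was not called in any comparison by edgeR, while DESeq2 called it lower for IR in WT and called its interaction, which was above 0. Its log2 fold change was −4.47 for IR in WT and 2.70 for IR in the libraries labelled Tet2-/-. The part of adipocyte RNA in these values was not tested.

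**Figure D3:**
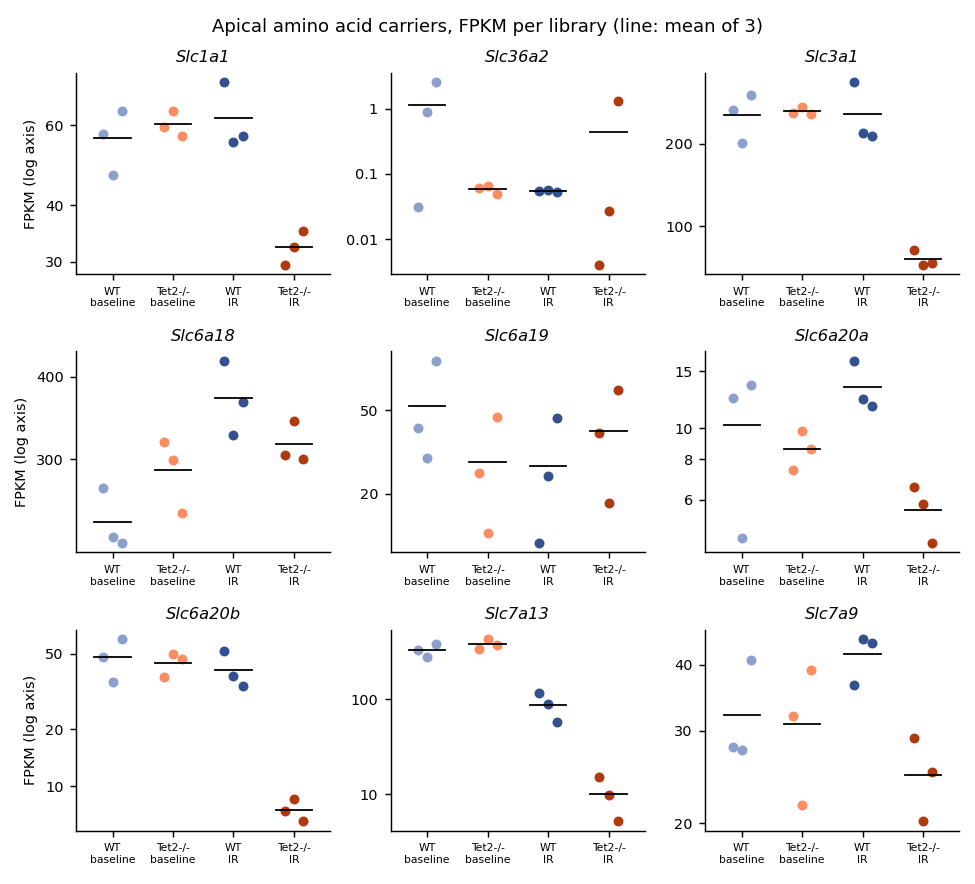
FPKM of the 9 apical carriers (log axes, each with its own range) in the 4 groups, 1 point per library in replicate order and a line at the arithmetic mean of 3. Slc7a13, Slc3a1, Slc6a20b and Slc1a1 are lowest in the 3 IR libraries labelled Tet2-/-, Slc6a18 and Slc6a19 overlap with other groups there, and Slc36a2 exceeds 0.1 FPKM in 3 libraries of 2 groups.

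In counts, 1 of 9 apical carriers fell after IR in WT and none rose, where 0.887% of all genes fell and 1.46% rose. In the libraries labelled Tet2-/-, IR lowered 4 of 9 (Slc1a1, Slc3a1, Slc6a20b and Slc7a13), where 11.6% of all genes fell, with a median log2 fold change of −0.89 over the 9 against 0.04 over all genes tested. After IR the genotypes differed in 5 of 9 (these 4 and Slc6a20a), all lower, where 3.85% of all genes passed as lower, with a median of −1.04 against 0.04. The interaction was called for 4 of 9, all below 0, where 5.39% of all genes were, with a median of −1.16 against 0.10. The 13 proximal tubule markers were read over the same comparisons. In WT, IR lowered 1 of 13, with a median of −0.77 against −0.07 for the apical carriers. It lowered 10 of 13 in the libraries labelled Tet2-/- (median −1.999), and 7 of 13 were lower between the genotypes after IR (median −1.30). The part of a lower share of proximal tubule RNA in the apical values was not tested. The 9 apical carriers were not all lower to the same degree, since the interaction ranged from −3.49 for Slc7a13 to 1.30 for Slc6a19 and 7.21 for Slc36a2. Of 6 transcription factors of the proximal tubule, none was called for IR in either genotype or between genotypes by edgeR, DESeq2 or limma, and 4 of 6 had an unadjusted p under 0.05 for IR in the libraries labelled Tet2-/-. By edgeR, the interaction was called for 1 of these 6, below 0. Between the genotypes after IR all 6 had a log2 fold change under 0, as had 7538 of 16186 genes tested.

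Partners and enzymes that work beside these carriers were taken from a list of 8 genes, 7 of them in the files. IR lowered 4 of 7 in the libraries labelled Tet2-/-, Tmem27, the peptide carrier Slc15a2, aminopeptidase N (Anpep) and γ-glutamyl transferase (Ggt1), where 11.6% of all genes fell. In WT it called 0 of 7 by edgeR, DESeq2 or limma, and 2 had an unadjusted p under 0.05. After IR, Slc15a2 and Anpep were lower in the libraries labelled Tet2-/- than in WT, Slc15a2 at −1.96 (standard error 0.22, edgeR adjusted p = 0.0104) and Anpep at −2.24 (standard error 0.29, edgeR adjusted p = 0.0123). The interaction was called for Slc15a2, Anpep and Ggt1.

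Basolateral carriers moved in both directions. Slc38a3 (SNAT3), which takes up glutamine for ammonia production, was the only member that edgeR called higher in WT after IR. Its FPKM was 47.5, 28.5 and 31.2 in WT baseline and 169, 126 and 109.7 in WT IR libraries, which did not overlap, with a log2 fold change of 1.84 (standard error 0.24, edgeR adjusted p = 0.0161). In the libraries labelled Tet2-/- it was 50.7, 55.1 and 33.2 at baseline and 115, 64.4 and 43.5 after IR, which overlapped, with 0.42 (standard error 0.35, edgeR adjusted p = 0.355). The difference between these IR effects was −1.38 (standard error 0.47, edgeR adjusted p = 0.088), not called by edgeR or limma but called by DESeq2. The WT call was lost without WT baseline replicate 2 or 3 or WT IR replicate 2, and without both WT baseline libraries that held adipocyte genes the log2 fold change was 1.43.

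Slc6a13 (GAT2, a carrier of GABA and taurine) had 74.98, 62.2 and 68.2 FPKM in WT baseline, 95.4, 81.2 and 72.2 in Tet2-/- baseline and 113, 63.97 and 71.1 in WT IR libraries. It fell to 29.8, 16.5 and 12.1 after IR in the libraries labelled Tet2-/-, below every other library. The log2 fold change was −2.35 (standard error 0.32, edgeR adjusted p = 0.0012) for IR there, −2.19 (standard error 0.37, edgeR adjusted p = 0.0199) between the genotypes after IR and −2.51 (standard error 0.43, edgeR adjusted p = 0.00776) for the interaction. Its genotype call after IR was lost without WT IR replicate 1 or 3 or Tet2-/- IR replicate 2. The exporters of the blood side were not called by edgeR, DESeq2 or limma in any comparison. Slc7a7 (y+LAT1) ranged from 14.9 to 73.6 FPKM within WT baseline libraries alone, and Slc7a8 (LAT2) from 8.29 to 24.9. Slc43a2 (LAT4) had 12.7, 11.4 and 15.3 FPKM in Tet2-/- baseline and 17.9, 23.3 and 25.03 in Tet2-/- IR libraries, with no overlap and a log2 fold change of 0.49 (standard error 0.19, edgeR adjusted p = 0.0713). In this comparison 40.5% of all genes tested lay higher without overlap.

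Among the stress-induced carriers, Slc38a2 (SNAT2, chr15:96517823-96530129), the system A carrier induced by starvation and the gene with the intronic element shown above, was the only member that edgeR called higher between the genotypes after IR. Its FPKM was 13.9, 14.3 and 12.4 in WT baseline, 11.5, 12.5 and 8.24 in Tet2-/- baseline and 14.1, 20.2 and 14.6 in WT IR libraries. It was 64.95, 39.3 and 33.7 in the IR libraries labelled Tet2-/-, above all 9 others. IR gave a log2 fold change of 0.20 (standard error 0.15, edgeR adjusted p = 0.463) in WT and 1.84 (standard error 0.28, edgeR adjusted p = 0.00177) in the libraries labelled Tet2-/-, and the interaction was 1.68 (standard error 0.34, edgeR adjusted p = 0.0151). Between the genotypes after IR it was 1.41 (standard error 0.27, edgeR adjusted p = 0.0266), and this call was lost without WT IR replicate 1 or 3.

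Slc3a2 codes for 4F2hc, the heavy chain that Slc7a5, Slc7a6, Slc7a7 and Slc7a8 need at the membrane. Its FPKM was 32.3, 29.6 and 47.3 in WT baseline and 44.8, 71.1 and 64.5 in WT IR libraries, and 32.1, 28.9 and 37.7 and 137, 69.1 and 92.3 in Tet2-/- baseline and IR libraries. IR gave 0.66 (standard error 0.26, edgeR adjusted p = 0.189) in WT and 1.35 (standard error 0.28, edgeR adjusted p = 0.00689) in the libraries labelled Tet2-/-. The 2 IR groups overlapped, and neither the genotype difference after IR nor the interaction was called. Its light chain Slc7a5 (LAT1) had 1.57, 1.09 and 1.13 FPKM in WT baseline, 1.52, 1.2 and 1.08 in Tet2-/- baseline, 1.36, 2.75 and 1.55 in WT IR and 5.38, 6.35 and 2.58 in Tet2-/- IR libraries. IR gave a log2 fold change of 1.64 (standard error 0.30, edgeR adjusted p = 0.0043) in the libraries labelled Tet2-/- and 0.51 (standard error 0.30, edgeR adjusted p = 0.366) in WT. After IR, Slc7a5 differed between the genotypes by 1.23 (standard error 0.36, edgeR adjusted p = 0.0754), not called by edgeR but called by DESeq2.

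The arginine and lysine carrier Slc7a1 (CAT1) had 1.41, 3.06 and 1.57 FPKM in WT baseline, 1.46, 0.919 and 0.793 in Tet2-/- baseline, 1.75, 3.92 and 1.78 in WT IR and 6.91, 4.58 and 2.5 in Tet2-/- IR libraries. It rose after IR in the libraries labelled Tet2-/-, at 1.88 (standard error 0.37, edgeR adjusted p = 0.00575), while IR in WT gave 0.23 (standard error 0.40, edgeR adjusted p = 0.769). The interaction of Slc7a1 was 1.69 (standard error 0.60, edgeR adjusted p = 0.0997), not called by edgeR or limma but called by DESeq2. The glycine carrier Slc6a9 (GlyT1) had 7.02, 11.5 and 7.07 and 11.5, 8.28 and 11.8 FPKM in WT and Tet2-/- baseline libraries and 10.9, 15.3 and 13.9 and 16.4, 15.9 and 20.2 after IR. Its IR effects of 0.59 in WT and 0.48 in the libraries labelled Tet2-/- were not called.

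The small neutral amino acid exchangers of this group were not called by edgeR, DESeq2 or limma in any comparison. Slc1a4 (ASCT1) had 11.4, 13.8 and 14.7 FPKM in WT baseline, 8.98, 15.6 and 11.6 in Tet2-/- baseline, 15.7, 17.6 and 12.1 in WT IR and 10.1, 10.9 and 12.3 in Tet2-/- IR libraries. Slc1a5 (ASCT2) had 19.9, 13.7 and 13.2, 25.8, 15.99 and 20.2, 22.6, 17.6 and 13.2 and 29.2, 34.3 and 16.8 FPKM in the same order, with overlap between all groups. Slc7a3 (CAT3) stayed between 0.071 and 0.372 FPKM in all 12 libraries, although it holds the same intronic letters as Slc38a2.

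**Figure D4:**
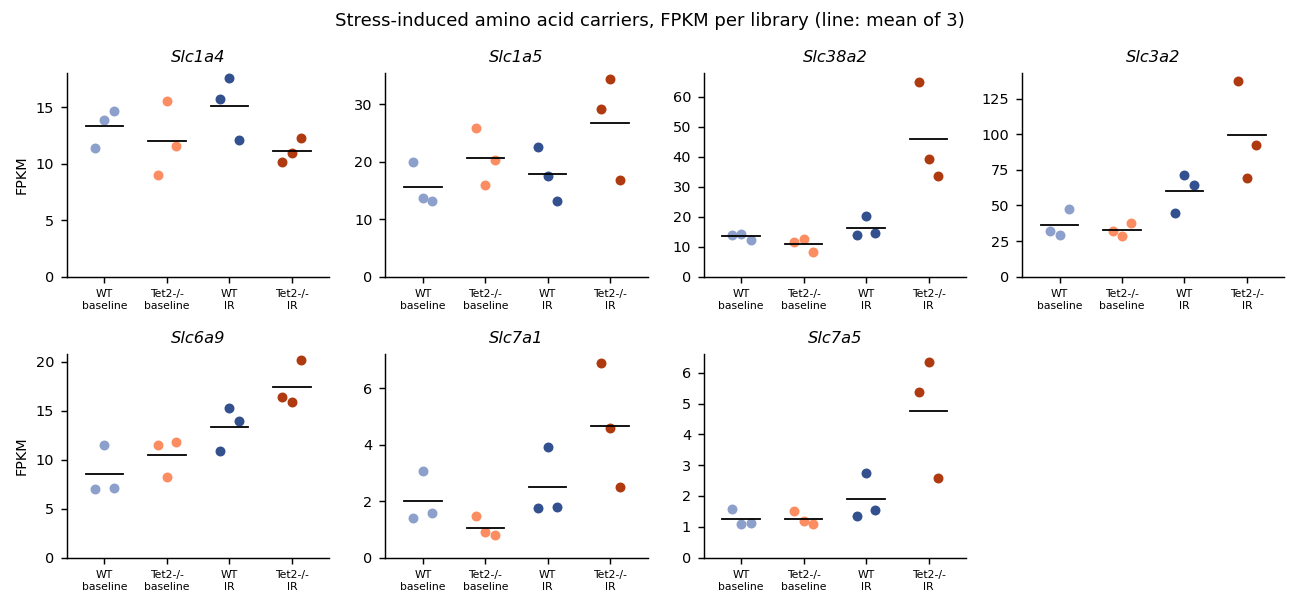
FPKM (linear axes from 0) of the 7 stress-induced carriers with a group mean of at least 1, 1 point per library in replicate order and a line at the mean of 3. Slc38a2 is at 33.7 or more in the 3 IR libraries labelled Tet2-/- and at 20.2 or less in all others, while Slc1a4 and Slc1a5 overlap between groups.

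In counts, IR in the libraries labelled Tet2-/- raised 4 of 8 stress-induced carriers (Slc38a2, Slc3a2, Slc7a1 and Slc7a5), where 12.7% of all genes rose, with a median log2 fold change of 0.92 against 0.04 over all genes tested. IR in WT called 0 of 8 by edgeR, DESeq2 or limma, with a median of 0.22 against −0.03 and 2 genes with an unadjusted p under 0.05. After IR the genotypes differed in 1 of 8, which was higher, where 2.3% of all genes passed as higher, with a median of 0.65 against 0.04. A list of 15 other genes of the amino acid response was read beside them. IR raised 7 of 15 in the libraries labelled Tet2-/- (Atf5, Trib3, Asns, Chac1, Psat1, Aldh18a1 and Nupr1) and lowered 1, Ddit4. In WT it called 0 of 15 by edgeR or limma, 8 had an unadjusted p under 0.05 and DESeq2 called 3 higher and 1 lower. Asns, the asparagine synthetase gene, showed log2 fold changes of 1.70 (standard error 0.39, edgeR adjusted p = 0.0711) in WT and 1.48 (standard error 0.26, edgeR adjusted p = 0.00363) in the libraries labelled Tet2-/- and an interaction of −0.18 (standard error 0.50, edgeR adjusted p = 0.854). In the interaction edgeR called 1 of 15, the serine synthesis gene Psat1, at 2.34 (standard error 0.63, edgeR adjusted p = 0.0409), and DESeq2 called Psat1, Aldh18a1 and Nupr1. At baseline edgeR and limma called 0 of 15 between the genotypes, 6 had an unadjusted p under 0.05, and DESeq2 called Asns higher and Psat1 and Nupr1 lower in the libraries labelled Tet2-/-. Between the genotypes after IR 15 of 15 had a log2 fold change above 0, as had 8648 of 16186 genes tested. Of these 15, edgeR called 0, 6 had an unadjusted p under 0.05, DESeq2 called 2 (Chac1 and Trib3) and limma 1 (Chac1).

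Other members called after IR in the libraries labelled Tet2-/- were of several roles. Slc7a12 (Asc-2, a light chain of the Slc7 family, chr3:14480699-14505818) had 9.12, 0.49 and 2.88 FPKM in WT baseline, 4.89, 4.3 and 4.65 in Tet2-/- baseline, 23.1, 1.26 and 1.76 in WT IR and 0.259, 0.221 and 0.086 in Tet2-/- IR libraries. IR gave a log2 fold change of −4.86 (standard error 0.39, edgeR adjusted p = 0.000193) in the libraries labelled Tet2-/- and 0.96 (standard error 1.29, edgeR adjusted p = 0.699) in WT, where replicate 1 alone was high. The genotype difference after IR was −5.58 (standard error 1.28, edgeR adjusted p = 0.0406) and was lost with limma and without WT IR replicate 3 or any IR library labelled Tet2-/-, and DESeq2 gave it no adjusted p. The interaction was −5.77 (standard error 1.61, edgeR adjusted p = 0.0468), and it was lost with limma and when any library other than WT baseline replicate 1 and WT IR replicates 2 and 3 was left out.

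The heavy chain partner Slc7a6 (y+LAT2) had 1.51, 4.15 and 1.9 FPKM in WT baseline, 1.32, 1.18 and 0.773 in Tet2-/- baseline, 1.42, 2.21 and 1.14 in WT IR and 4.45, 3.92 and 1.95 in Tet2-/- IR libraries. Its IR effect was 1.39 (standard error 0.32, edgeR adjusted p = 0.011) in the libraries labelled Tet2-/-, where baseline and IR did not overlap, and −0.73 (standard error 0.41, edgeR adjusted p = 0.333) in WT. The interaction was 2.17 (standard error 0.57, edgeR adjusted p = 0.0382) and was lost with limma on log2(FPKM + 1) and without WT baseline replicate 2, any Tet2-/- baseline library, WT IR replicate 1 or 3 or Tet2-/- IR replicate 1 or 2. Slc7a6 was also under all WT baseline libraries at Tet2-/- baseline, which was not called.

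Lysosomal carriers differed among themselves. Slc36a1 (PAT1) had 20.5, 20.1 and 25.9 FPKM in WT baseline, 14.5, 18.2 and 24.6 in Tet2-/- baseline, 25.3, 19.3 and 23.05 in WT IR and 8.59, 10.9 and 10.5 in Tet2-/- IR libraries. It fell after IR in the libraries labelled Tet2-/- (−1.20 (standard error 0.22, edgeR adjusted p = 0.0043)) and was lower than in WT after IR (−1.28 (standard error 0.17, edgeR adjusted p = 0.0127)), with an interaction of −1.12 (standard error 0.29, edgeR adjusted p = 0.0377). The IR call was lost with limma, with library sizes alone and without Tet2-/- baseline replicate 3. The interaction was lost with limma on log2(FPKM + 1) and without any of 8 libraries, the exceptions being WT baseline replicate 3, Tet2-/- baseline replicate 1, WT IR replicate 2 and Tet2-/- IR replicate 3. Slc36a4 (PAT4) had 0.48, 0.575 and 1.06, 0.177, 0.324 and 0.21, 0.793, 0.806 and 0.364 and 1.37, 1.18 and 0.503 FPKM in WT baseline, Tet2-/- baseline, WT IR and Tet2-/- IR libraries. It rose after IR in the libraries labelled Tet2-/- (1.81 (standard error 0.44, edgeR adjusted p = 0.0135)), from a baseline at which all 3 libraries lay under those of WT, and this call was lost with limma on log2(FPKM + 1) and without Tet2-/- baseline replicate 1 or 3. The glutamine carrier Slc38a7 and the arginine sensor Slc38a9 stayed within 3.64 to 5.80 and 1.32 to 1.82 FPKM in all 12 libraries, and neither was called.

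Of the remaining Slc38 genes, Slc38a1 (SNAT1) rose after IR in the libraries labelled Tet2-/-. Its FPKM was 0.508, 0.603 and 0.55 in WT baseline, 0.392, 0.51 and 0.362 in Tet2-/- baseline, 0.548, 0.976 and 0.433 in WT IR and 1.46, 1.86 and 0.518 in Tet2-/- IR libraries, and IR gave 1.31 (standard error 0.41, edgeR adjusted p = 0.0337). Replicate 3 of the last group was well under the other two, and the call was lost with limma on log2(FPKM + 1) and without any 1 of the Tet2-/- baseline libraries or Tet2-/- IR replicate 1 or 2. The glutamate carrier Slc1a3 (GLAST) rose by 1.17 (standard error 0.38, edgeR adjusted p = 0.0418) between 0.356, 0.37 and 0.30 FPKM at baseline and 0.855, 0.537 and 1.31 after IR, a call that was lost with limma on log2(FPKM + 1), with the replicate block and without any 1 of the Tet2-/- baseline libraries or Tet2-/- IR replicate 1 or 3.

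Some carriers known from neurons changed as well. Slc6a7, a proline carrier of neurons, had 0.189, 0.199 and 0.151 FPKM in WT baseline, 0.644, 0.309 and 0.31 in Tet2-/- baseline, 0.13, 0.014 and 0.065 in WT IR and 0.026, 0.075 and 0.011 in Tet2-/- IR libraries, with an IR effect of −3.70 (standard error 0.63, edgeR adjusted p = 0.00315) in the latter genotype, a call lost with limma on log2(FPKM + 1). The branched-chain amino acid carrier Slc6a15 fell from 21.7, 29.5 and 22.1 to 5.79, 5.74 and 7.68 FPKM in the libraries labelled Tet2-/- (−2.18 (standard error 0.21, edgeR adjusted p = 0.000326)). In WT, IR gave Slc6a15 a log2 fold change of −1.39 (standard error 0.32, edgeR adjusted p = 0.0715), also without overlap and called by DESeq2, and edgeR did not call the interaction. The serotonin carrier Slc6a4 had 0.865, 0.453 and 1.59 FPKM in WT baseline, 1.21, 1.03 and 0.965 in Tet2-/- baseline, 6.04, 3.1 and 2.4 in WT IR and 1.16, 1.42 and 0.788 in Tet2-/- IR libraries. It was lower after IR in the libraries labelled Tet2-/- than in WT, at −1.87 (standard error 0.37, edgeR adjusted p = 0.0277). The WT IR libraries stood above all others, and the call was lost with limma on log2(FPKM + 1) and without WT IR replicate 1 or any 1 of the IR libraries labelled Tet2-/-. IR in WT gave Slc6a4 1.90 (standard error 0.52, edgeR adjusted p = 0.0985), called higher by DESeq2 but not by edgeR or limma. The large neutral amino acid carrier Slc43a1 (LAT3) fell by −1.11 on the log2 scale in the libraries labelled Tet2-/- and was at −1.11 in WT, not called. Its call was lost with limma, with library sizes alone and without any 1 of the Tet2-/- baseline libraries or Tet2-/- IR replicate 1.

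**Figure D5:**
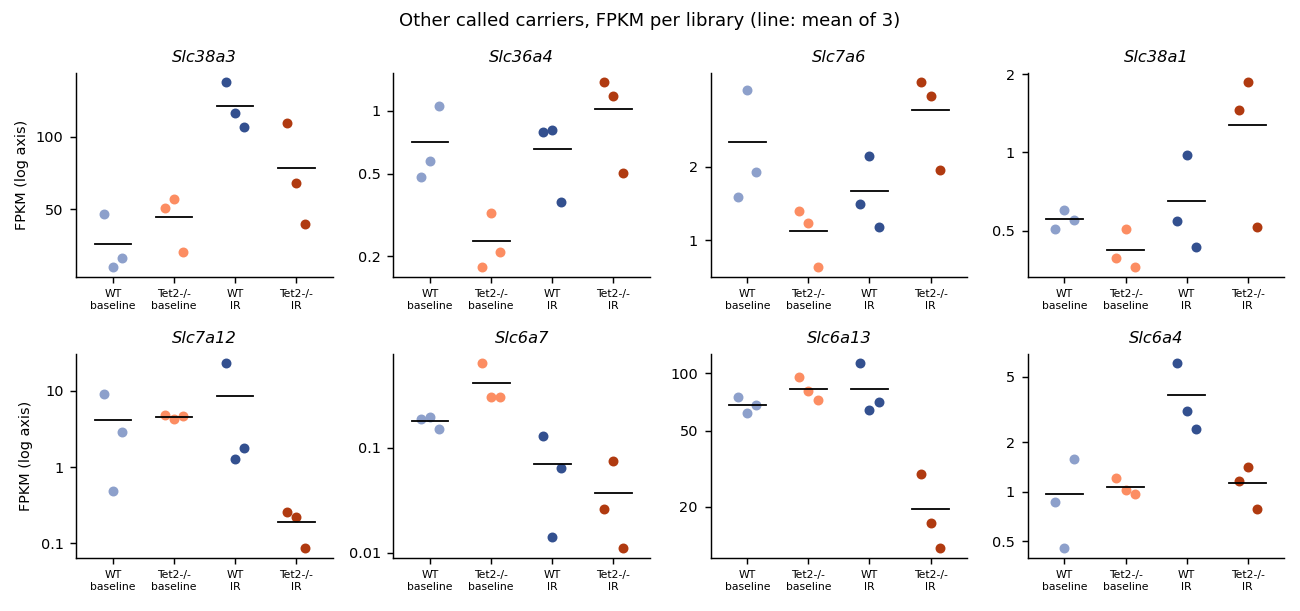
FPKM (log axes, each with its own range) of 8 further called carriers, taken as up to 3 per comparison and direction by size of the change from outside the apical and stress-induced groups, 1 point per library in replicate order and a line at the arithmetic mean of 3. By group mean, Slc38a3 and Slc6a4 are highest in WT IR libraries, Slc6a13, Slc7a12 and Slc6a7 lowest in the IR libraries labelled Tet2-/-, and Slc36a4, Slc7a6 and Slc38a1 lowest at Tet2-/- baseline.

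Osmolyte carriers, which hold taurine, creatine and betaine in cells of the medulla and tubule, were not called by edgeR. DESeq2 called Slc6a12 lower for IR in WT, and limma called Slc6a8 higher for IR in the libraries labelled Tet2-/-. In the libraries labelled Tet2-/- the taurine carrier Slc6a6 had an IR effect of −0.74 (standard error 0.24, edgeR adjusted p = 0.043) and the creatine carrier Slc6a8 0.95 (standard error 0.32, edgeR adjusted p = 0.0444), both under the fold limit. The betaine carrier Slc6a12 ranged from 0.596 to 4.58 FPKM over the IR libraries labelled Tet2-/-. Slc6a17 was higher after IR in the libraries labelled Tet2-/- than in WT at 0.74 (standard error 0.16, edgeR adjusted p = 0.036), also under the fold limit. Of the 50 members tested, edgeR called 21 in at least 1 fit and 29 in none, 18 of these outside the apical, basolateral and stress-induced groups. After the osmolyte carriers the most abundant of the 18 was Slc38a10, at 16.0 to 34.7 FPKM over the 12 libraries. Of the 60 members, 10 were under edgeR's filter for low counts in all fits, at 0.035 FPKM or less in every library.

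Markers of other cells also moved after IR. Of 7 neutrophil genes, IR in the libraries labelled Tet2-/- raised 7, with a summed FPKM of 75.1 to 133 against 1.78 to 2.78 at baseline, and in WT IR libraries the sum was 4.03 to 9.44. Of 5 tubular injury genes the sum was 316 to 1096 in WT IR and 2786 to 2988 in Tet2-/- IR libraries, against at most 26.6 at baseline. All 5 glomerular genes rose after IR in the libraries labelled Tet2-/-, with a summed FPKM of 42.9 to 87.8 against 13.7 to 19.1 at baseline. In the same comparison 4 of 9 apical carriers were called lower. WT IR replicate 3 stood apart, with a glomerular sum of 3.23 against 24.9 in both other WT IR libraries and an endothelial sum of 5.26 against 29.3 and 42.1. Tet2-/- IR replicate 3 stood apart as well, with a sum of thick ascending limb genes of 406 against 2135 and 2652 and of distal convoluted tubule genes of 43.2 against 97.7 and 134. The part of these cells in the apical and stress-induced values was not tested.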

How the data were processed

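RNA-seq libraries of whole kidney from 12 mice, in 4 groups of 3, were compared. Reads had been aligned by STAR (mm9), and HOMER gave the estimated counts that the authors deposited for each RefSeq transcript, without normalization. The authors also deposited FPKM of the same transcripts. The counts rise in steps of 0.5, 38.7% are not whole, and they were rounded before each test on counts. How reads shared by several genes or transcripts were placed, and whether the counting used strand, is not given in the sources used here. Of 24421 symbols, 5569 had more than 1 transcript, 18 members among them.

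Each comparison used its own 6 libraries in edgeR 4.0.16 (R 4.3.3) with TMM factors, the filter filterByExpr and the quasi-likelihood test, whose p-values were adjusted by the method of Benjamini and Hochberg across the genes that passed the filter. The interaction of genotype and IR was fitted over 12 libraries. Limits were an adjusted p of 0.05 and, in the 4 comparisons of groups, a log2 fold change of 1, as in the study's methods. Libraries come from separate mice, and p-values measure the spread between 3 of them. An exact permutation test of a single value cannot go below 0.1 here. DESeq2 1.42.0, limma 3.58.1 on log2(FPKM + 1) and log2(FPKM + 0.1), other scalings and filters, the sum of all transcripts of a symbol and each library left out were alternatives. The tests were tried on simulated data. Figures were drawn with matplotlib 3.10.9. Sequences were read from the mm9 genome and from RefSeq promoters.

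The members, role groups, marker lists and the rule for named genes were chosen with earlier results of these data known. The rule named every apical, basolateral and stress-induced member and each other member called in any fit, with values per library for apical and stress-induced members with a group mean of at least 1 FPKM and for up to 3 other called members per direction and comparison. Values per library of Slc1a3, Slc36a1, Slc6a15 and Slc43a2 were added after they were seen. A gene of the role groups, Slc6a16, had no match, and 3 opposite-strand symbols were not taken. Some results of the marker lists and motif searches are not reported here.

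Same-numbered baseline and IR libraries of 1 genotype deviated together from their group means, although the mice differ. The correlation was 0.349, 0.349 and 0.344 for the WT pairs, and for the pairs labelled Tet2-/- it was 0.12, 0.35 and 0.202. No label gives a source for such pairs. Between the genotypes the correlations were −0.173, −0.15 and 0.0524 at baseline and −0.000229, 0.206 and 0.303 after IR. Of these, 0.206 and 0.303 lie within the range of the pairs labelled Tet2-/-.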

Additional observations from a re-analysis of the deposited data

Results flagged for a closer look

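The IR effect of 9 members differed between the libraries labelled Tet2-/- and WT by the interaction term of edgeR's quasi-likelihood test over all 12 libraries, each at an adjusted p under 0.05. The effect in the libraries labelled Tet2-/- minus that in WT was −5.77 on the log2 scale for Slc7a12, −3.49 for Slc7a13, −2.51 for Slc6a20b, −2.51 for Slc6a13, −1.94 for Slc3a1, −1.19 for Slc1a1 and −1.12 for Slc36a1. It was 1.68 for Slc38a2 and 2.17 for Slc7a6. For Slc7a12, Slc7a6 and Slc36a1 the call was lost when single libraries were left out, and without the 3 libraries with adipocyte genes none of the 9 was called. The groups hold 3 libraries each, too few to test a single library as standing apart.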

How the results depend on the processing

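No called change of a member reversed its direction in the alternatives run. With DESeq2, IR in WT gave 2 members higher and 4 lower, the genotype comparison gave 1 higher and 4 lower at baseline and 3 higher after IR, and 17 interactions were called. Over all genes DESeq2 called 490 higher and 492 lower for IR in WT and 23 and 297 between the genotypes at baseline. It called 775 higher and 880 lower between the genotypes after IR, and 1210 interactions above and 1600 below 0 among 16741 genes. With all 12 libraries in a single fit, IR in WT gave 2 higher and 2 lower and the genotypes after IR 2 higher. Without the filter, IR in WT gave 2 lower. With a mean FPKM of at least 1, IR in the libraries labelled Tet2-/- gave 5 higher, and with limma on log2(FPKM + 1) 6 lower. With no fold limit, the genotypes after IR gave 2 higher. Without both WT baseline libraries that held adipocyte genes, IR in WT gave 0 higher and 0 lower and 1 interaction remained, and without Tet2-/- IR replicate 3 as well, an alternative chosen after seeing the data, 0 interactions were called by edgeR.

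With the replicate block, IR in WT gave 2 members higher and 3 lower, and the other counts stayed within 1.5 times their value, with 7 higher and 10 lower for IR in the libraries labelled Tet2-/-, 1 higher and 10 lower for the genotypes after IR and 11 interactions. Over all genes the block gave 428 higher and 559 lower for IR in WT and 2137 and 2056 for IR in the libraries labelled Tet2-/-. It gave 477 higher and 616 lower for the genotypes after IR, and 821 interactions above and 1015 below 0. With each library left out in turn, IR in WT gave 0 to 1 higher and 0 to 1 lower, IR in the libraries labelled Tet2-/- 5 to 8 higher and 8 to 11 lower, the genotypes after IR 0 to 2 higher and 5 to 9 lower, and the interaction 6 to 13. In the alternatives run, all calls held for Slc38a2, Slc3a1, Slc3a2, Slc6a13, Slc6a15, Slc6a20b, Slc7a1, Slc7a12, Slc7a13, Slc7a5 and Slc7a6 in the IR effect of the libraries labelled Tet2-/-, and for Slc36a1, Slc3a1, Slc6a20a, Slc6a20b and Slc7a13 between the genotypes after IR. With library sizes alone, the median log2 fold change of all genes was 0.27 for IR in the libraries labelled Tet2-/- and 0.14 between the genotypes after IR, against 0.04 with TMM, and 0.24 for the interaction, against 0.10, and the IR calls of Slc1a1, Slc36a1 and Slc43a1 in the libraries labelled Tet2-/- and the genotype call of Slc1a1 were lost. Baseline mice had no operation. Called members at low FPKM differed in their counts. Slc6a7 rested on few, 3.5 to 160.5 per library, while Slc38a1 had 227 to 1848.5.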

Other observations

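At baseline, where edgeR called no member between the genotypes, 7 of 49 members tested lay lower in all 3 libraries labelled Tet2-/- than in all 3 of WT and 1 lay higher. Among all genes tested, 16.5% lay lower and 3.06% higher, so the count is no result about the members, and the values below are a description. Slc38a11 had 0.215, 0.505 and 0.258 FPKM in WT and 0.017, 0.031 and 0.037 in the libraries labelled Tet2-/-, with a log2 fold change of −3.28 (standard error 0.52, edgeR adjusted p = 0.206). Slc38a4, a system A carrier, had 0.204, 0.275 and 0.22 FPKM in WT and 0.061, 0.119 and 0.084 in the libraries labelled Tet2-/-, with −1.29 (standard error 0.33, edgeR adjusted p = 0.250). The betaine carrier Slc6a12 had 2.21, 4.21 and 3.97 FPKM in WT and 2.11, 2.01 and 1.51 in the libraries labelled Tet2-/-. WT baseline replicates 2 and 3 held adipocyte genes, whose part in these values was not tested.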
